A study of Mus musculus with 24 samples.

Results

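Mouse genes that encode red cell surface proteins, whose human counterparts carry blood group antigens or sit beside them, were followed through the peak lists of 2 histone marks. The 9 genes are Kel, Rhd, Rhag, Aqp1, Ermap, Icam4, Gypc, Bsg and Cd44, out of 21887 protein-coding genes placed on the mm10 build. A peak belonged to a gene when it lay in the gene's annotated body or within 5 kb of either annotated end. These windows held 29 of 23341 H3K27ac peaks of the doxycycline list and 30 of 28902 of the untreated list. For H3K4me1 they held 48 of 101388 peaks of the doxycycline list and 55 of 119362 of the untreated list.

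The cells were one line of leukemic erythroid cells from mouse bone marrow, TgSpi1, grown with erythropoietin (EPO). All cultures carried the Spi1 overexpression and a doxycycline-inducible short hairpin RNA against Spi1. In the treated group doxycycline was given for 48 h to induce the hairpin, and the untreated group received none. The labels name no cells given doxycycline but lacking the hairpin, so effects of the drug cannot be told apart from those of the knockdown. H3K27ac marks active promoters and enhancers, and H3K4me1 marks enhancers whether or not they are active. Each mark had 1 list per condition. Replicates 1 and 2 are both behind each H3K27ac list, and replicate 1 alone is behind each H3K4me1 list. No value therefore has a replicate error or a test, the read depth behind the lists is unknown, and every difference is one between 2 lists.

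The red cell membrane carries its blood group proteins in large complexes that are tied to the spectrin skeleton below. The Rh protein reaches the surface only together with the Rh-associated glycoprotein. Kell, the LW adhesion molecule and the Scianna protein are typical of erythroid cells, while the water channel aquaporin 1, basigin and CD44 are found in many tissues. Several of these genes are known targets of the erythroid factors GATA1 and KLF1, and CD44 is used in mouse bone marrow to stage erythroblasts because it is lost from their surface as they mature. SPI1, also called PU.1, is an ETS factor that holds such cells in an immature state when overexpressed. Of 10 erythroid marker genes, 10 in the doxycycline list and 6 in the untreated list had H3K27ac within 1 kb of an annotated end; Slc4a1, Hba-a1, Hbb-bs and Alas2 had it in the doxycycline list alone. The same count was 1 of 8 in both lists for granulocyte and macrophage markers (Cd14), 1 of 4 in both for B cell markers (Cd79a), 3 of 4 in both for megakaryocyte markers, and 0 of 4 in both for T cell markers and for stromal and endothelial markers. The part of these erythroid marker differences in the results on the members was not tested.

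RefSeq (GRCm38.p6) promoter stretches, from 250 bases before the start to 50 bases after it, were available for 7 members. In all 7, H3K27ac peaks lay over the stretch in both lists, against 44.1% of the 17492 genes with such an entry. Of these stretches, 5 are shown, chosen by gene. Kel and Aqp1 had the largest differences of the members in H3K4me1 and H3K27ac, Rhd and Rhag encode partners in 1 complex, and Cd44 went the other way. Whether the sequence of a stretch relates to these differences was not tested. The 5 stretches are chr6:41704276-41704575 on the minus strand for Kel, chr4:134864286-134864585 on the plus strand for Rhd, chr17:40810899-40811198 on the plus strand for Rhag, chr6:55336049-55336348 on the plus strand for Aqp1 and chr2:102901616-102901915 on the minus strand for Cd44. Each is written 5′ to 3′, and capitals mark GATAA (bound by GATA factors), CACCC (KLF factors) and GAGGAA (an ETS site of the SPI1 type) or the reverse complement of any of them.
Kel: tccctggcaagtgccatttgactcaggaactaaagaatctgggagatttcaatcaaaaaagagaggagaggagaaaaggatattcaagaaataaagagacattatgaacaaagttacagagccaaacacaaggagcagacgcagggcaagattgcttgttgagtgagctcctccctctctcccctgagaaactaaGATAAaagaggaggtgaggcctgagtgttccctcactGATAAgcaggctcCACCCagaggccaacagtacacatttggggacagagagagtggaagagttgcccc
Rhd: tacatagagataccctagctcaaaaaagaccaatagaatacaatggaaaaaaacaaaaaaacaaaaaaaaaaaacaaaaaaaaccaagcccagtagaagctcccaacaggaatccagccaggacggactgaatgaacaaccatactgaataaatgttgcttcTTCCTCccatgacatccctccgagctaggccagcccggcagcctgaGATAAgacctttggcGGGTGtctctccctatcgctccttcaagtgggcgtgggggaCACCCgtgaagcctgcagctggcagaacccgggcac
Rhag: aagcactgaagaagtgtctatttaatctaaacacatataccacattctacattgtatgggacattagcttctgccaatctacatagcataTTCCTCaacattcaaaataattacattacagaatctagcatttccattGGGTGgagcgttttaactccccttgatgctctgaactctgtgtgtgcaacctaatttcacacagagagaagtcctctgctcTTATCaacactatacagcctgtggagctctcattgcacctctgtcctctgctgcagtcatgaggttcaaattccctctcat
Aqp1: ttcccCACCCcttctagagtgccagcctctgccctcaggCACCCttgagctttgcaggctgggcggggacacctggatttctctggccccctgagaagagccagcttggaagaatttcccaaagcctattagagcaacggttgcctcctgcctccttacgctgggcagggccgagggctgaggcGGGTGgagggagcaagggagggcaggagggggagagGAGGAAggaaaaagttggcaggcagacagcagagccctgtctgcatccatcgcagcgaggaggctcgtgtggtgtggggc
Cd44: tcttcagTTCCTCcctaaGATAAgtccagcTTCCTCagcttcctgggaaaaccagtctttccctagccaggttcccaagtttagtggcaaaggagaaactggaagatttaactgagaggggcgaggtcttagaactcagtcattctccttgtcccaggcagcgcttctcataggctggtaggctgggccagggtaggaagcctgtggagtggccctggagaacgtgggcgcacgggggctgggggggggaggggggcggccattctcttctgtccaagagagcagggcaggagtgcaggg

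Counted on both strands, GATAA was present in 6 of the 7 member promoters and in 25.4% of the 32851 promoters of the table. In 5 of these it lay close before the start, at -55 and -18 in Kel, -42 in Rhd, -31 in Rhag, -67 in Ermap and -43 in Icam4, while in Cd44 it lay at -232. The Aqp1 stretch had no GATAA. It did hold CACCC at -245, -211 and -66, a motif found in 6 of 7 member promoters, all but Cd44, and in 57.5% of all promoters. GAGGAA was present in 4 of 7, namely Rhd at -88, Rhag at -160, Aqp1 at -30 and Cd44 at -243 and -220, and in 28.3% of all promoters. The E-box CANNTG was in 4 of 7 and in 72.3% of all. GC content ran from 40.7% in Rhag to 62.7% in Aqp1, beside a median of 52.7% over all promoters. These are matches of letters, with no measurement of binding.

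The windows of 7 of the 9 genes had more bp under H3K27ac peaks in the doxycycline list than in the untreated list, and 2, Icam4 and Cd44, had fewer. Over all genes with any covered bp, 46.7% were longer in the doxycycline list and 50.5% shorter. Summed over the members, H3K27ac covered 79527 bp in the doxycycline list and 66590 bp in the untreated list, a ratio of 1.19, while the ratio over all protein-coding genes was 0.988. The median difference was 1481 bp for the members and -7.0 bp for all genes with covered bp. Members had more coverage without doxycycline, with an untreated mean of 7398.9 bp against 3678.9 bp over genes with covered bp. More coverage leaves room for larger differences in bp. The median differences, and the ranks of single members by bp given below, are not adjusted for this. A gene was called longer or shorter when its covered length differed by at least 1.5-fold and 500 bp. By that rule 1 member, Aqp1, was longer in H3K27ac and 0 were shorter, and 10.1% and 11.0% of genes were longer and shorter. That 1 called member of 9 is close to that background.

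H3K4me1 was likewise longer at 7 members and shorter at 2, here Rhd and Cd44. The sign at Rhd was not stable: the difference was -253 bp, but 2754 bp with windows of 20 kb and 97 bp in the better 50% of each list by score. Over all genes 60.7% were longer and 38.7% shorter in this mark. The members' H3K4me1 summed to 196800 bp in the doxycycline list and 173571 bp in the untreated list, a ratio of 1.13 beside 1.06 over all genes. The median difference was 1956 bp, and 391 bp over all genes with covered bp. Here too the untreated mean was higher for members, 19285.7 bp against 10163.2 bp over genes with covered bp. Kel was the 1 member called longer and 0 were called shorter, against 10.5% and 6.78% of genes. With windows of 5 kb, Kel, Rhag, Aqp1, Ermap, Gypc and Bsg were longer in both marks and Cd44 was shorter in both. Icam4 was longer in H3K4me1 alone, and Rhd was longer in H3K27ac and slightly shorter in H3K4me1. Ermap in H3K27ac and Rhag in H3K4me1 turned sign in 1 alternative each. With lists scaled to the same total, H3K4me1 differences were 644 bp at Rhag, 669 bp at Ermap and 2501 bp at Gypc. With peaks within 1 kb merged, that of Bsg was 850 bp.

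**Figure D1:**
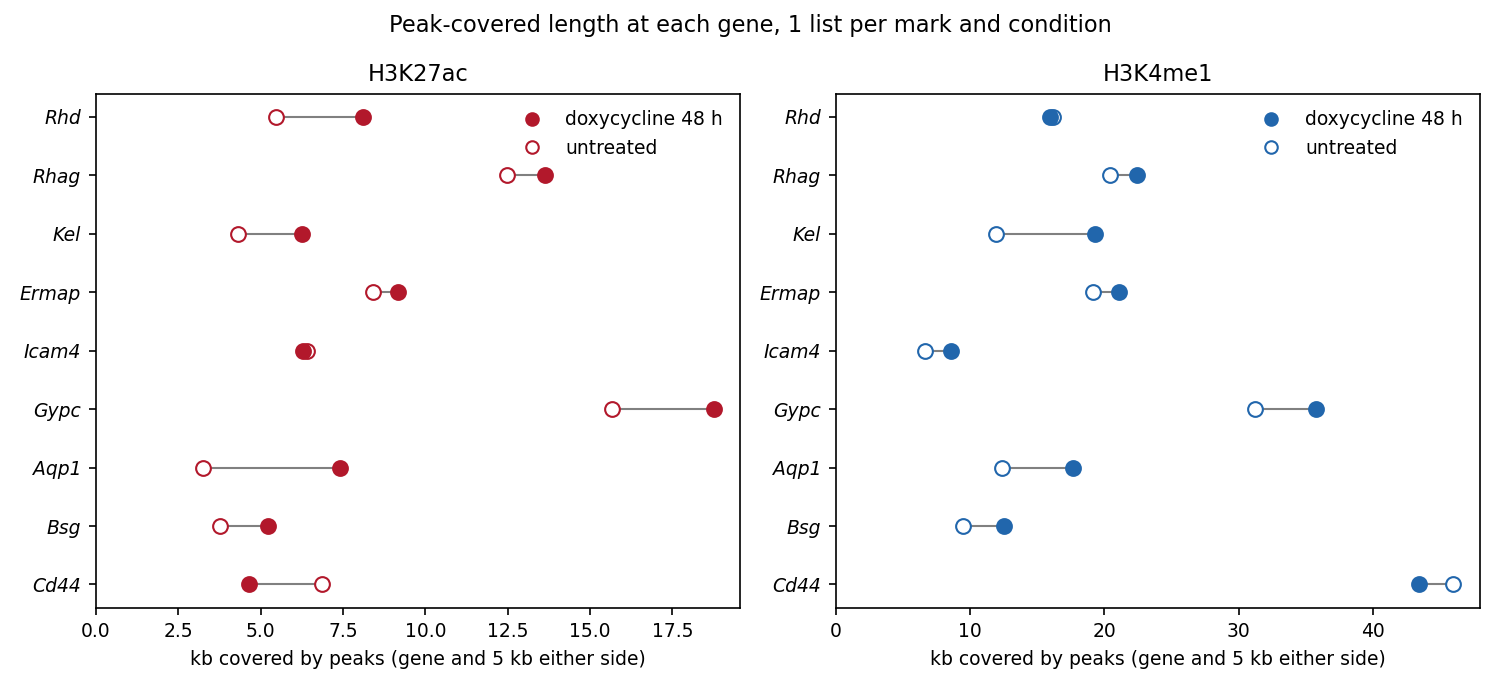
Length in kb covered by H3K27ac peaks and by H3K4me1 peaks in each gene with 5 kb either side, for the doxycycline and the untreated list; each point is 1 list and each line joins the 2 lists of a gene. Aqp1 has the widest gap in H3K27ac (7406 bp with doxycycline, 3262 bp untreated) and Kel in H3K4me1 (19342 bp and 11951 bp).

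The Rh genes were marked over their starts in every list. Rhd, the single mouse gene for the Rh antigen protein (chr4:134864536-134896172, plus strand), had 8103 bp of H3K27ac in the doxycycline list and 5456 bp in the untreated list. With doxycycline this was 1 unbroken peak from -1437 to 6665 bp relative to the start (chr4:134863099-134871201), wider than 99.1% of that list. The untreated list had a peak of 2853 bp from -1387 to 1465 bp and another of 2603 bp from 3513 to 6115 bp. The stretch between them, 2047 bp in the first part of the gene, was covered in the doxycycline list alone and made up most of the difference. H3K4me1 spanned this stretch in both conditions, with a peak of 12803 bp in the doxycycline list and 12403 bp in the untreated list. Total H3K4me1 of Rhd was 15959 bp with doxycycline and 16212 bp without, and an untreated peak of 903 bp at 21813 to 22715 bp had no counterpart.

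Rhag, which encodes the Rh-associated glycoprotein, a partner of Rh and a channel for ammonium or gas (chr17:40811099-40844094, plus strand), was covered over 13618 bp of H3K27ac in the doxycycline list and 12465 bp in the untreated list. A peak of 6003 bp over the start in the doxycycline list, from -1600 to 4402 bp, overlapped untreated peaks of 853 bp and 4503 bp. A peak of 453 bp at 12900 to 13352 bp was in the doxycycline list alone. In the other direction, an untreated peak of 2103 bp at 9050 to 11152 bp lay where the doxycycline list had peaks of 153 bp and 1053 bp. Rhag had stretches in both directions, 2050 bp in the doxycycline list alone and 897 bp in the untreated list alone. The net difference of 1153 bp was 347 bp in the widest 50% of each list. Its H3K4me1 covered 22421 bp with doxycycline and 20465 bp without. In the better 50% of each list by score that last difference turned to -453 bp.

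Kel encodes the Kell glycoprotein, a zinc endopeptidase joined to the XK protein in human red cells (chr6:41686329-41704334, minus strand). Its H3K27ac covered 6259 bp in the doxycycline list and 4303 bp in the untreated list, a ratio of 1.45. All untreated coverage lay in 1 peak over the start, from -2376 to 1926 bp, and the doxycycline list had this peak at 5153 bp, from -3126 to 2026 bp, with further peaks of 703 bp at 2524 to 3226 bp and 403 bp at -3776 to -3374 bp. No bp of Kel H3K27ac was in the untreated list alone. The difference of 1956 bp was 803 bp with windows of 2 kb and 850 bp in the widest 50% of each list. H3K4me1 differed more: 19342 bp in the doxycycline list and 11951 bp in the untreated list, a ratio of 1.62, and 97.8% of genes with covered bp had a smaller difference. That difference of 7391 bp was 5344 bp with windows of 2 kb and 13297 bp with windows of 20 kb. One H3K4me1 peak of 15053 bp in the doxycycline list (chr6:41696899-41711951) overlapped 5 separate untreated peaks, the widest of 7653 bp. The share of the Kel window under H3K4me1 was 69.1% with doxycycline and 42.7% without, beside medians over genes of 23.4% and 22.1%. The protein-coding gene Llcfc1 lies 612 bp from the far end of Kel, and part of the H3K4me1 there lay outside the Kel body. On the start side, the non-coding RNA gene Gm38796 lies 1853 bp from Kel. Stretches of 750 and 403 bp of H3K27ac and 1197 bp of H3K4me1, found with doxycycline alone, lay inside Gm38796.

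**Figure D2:**
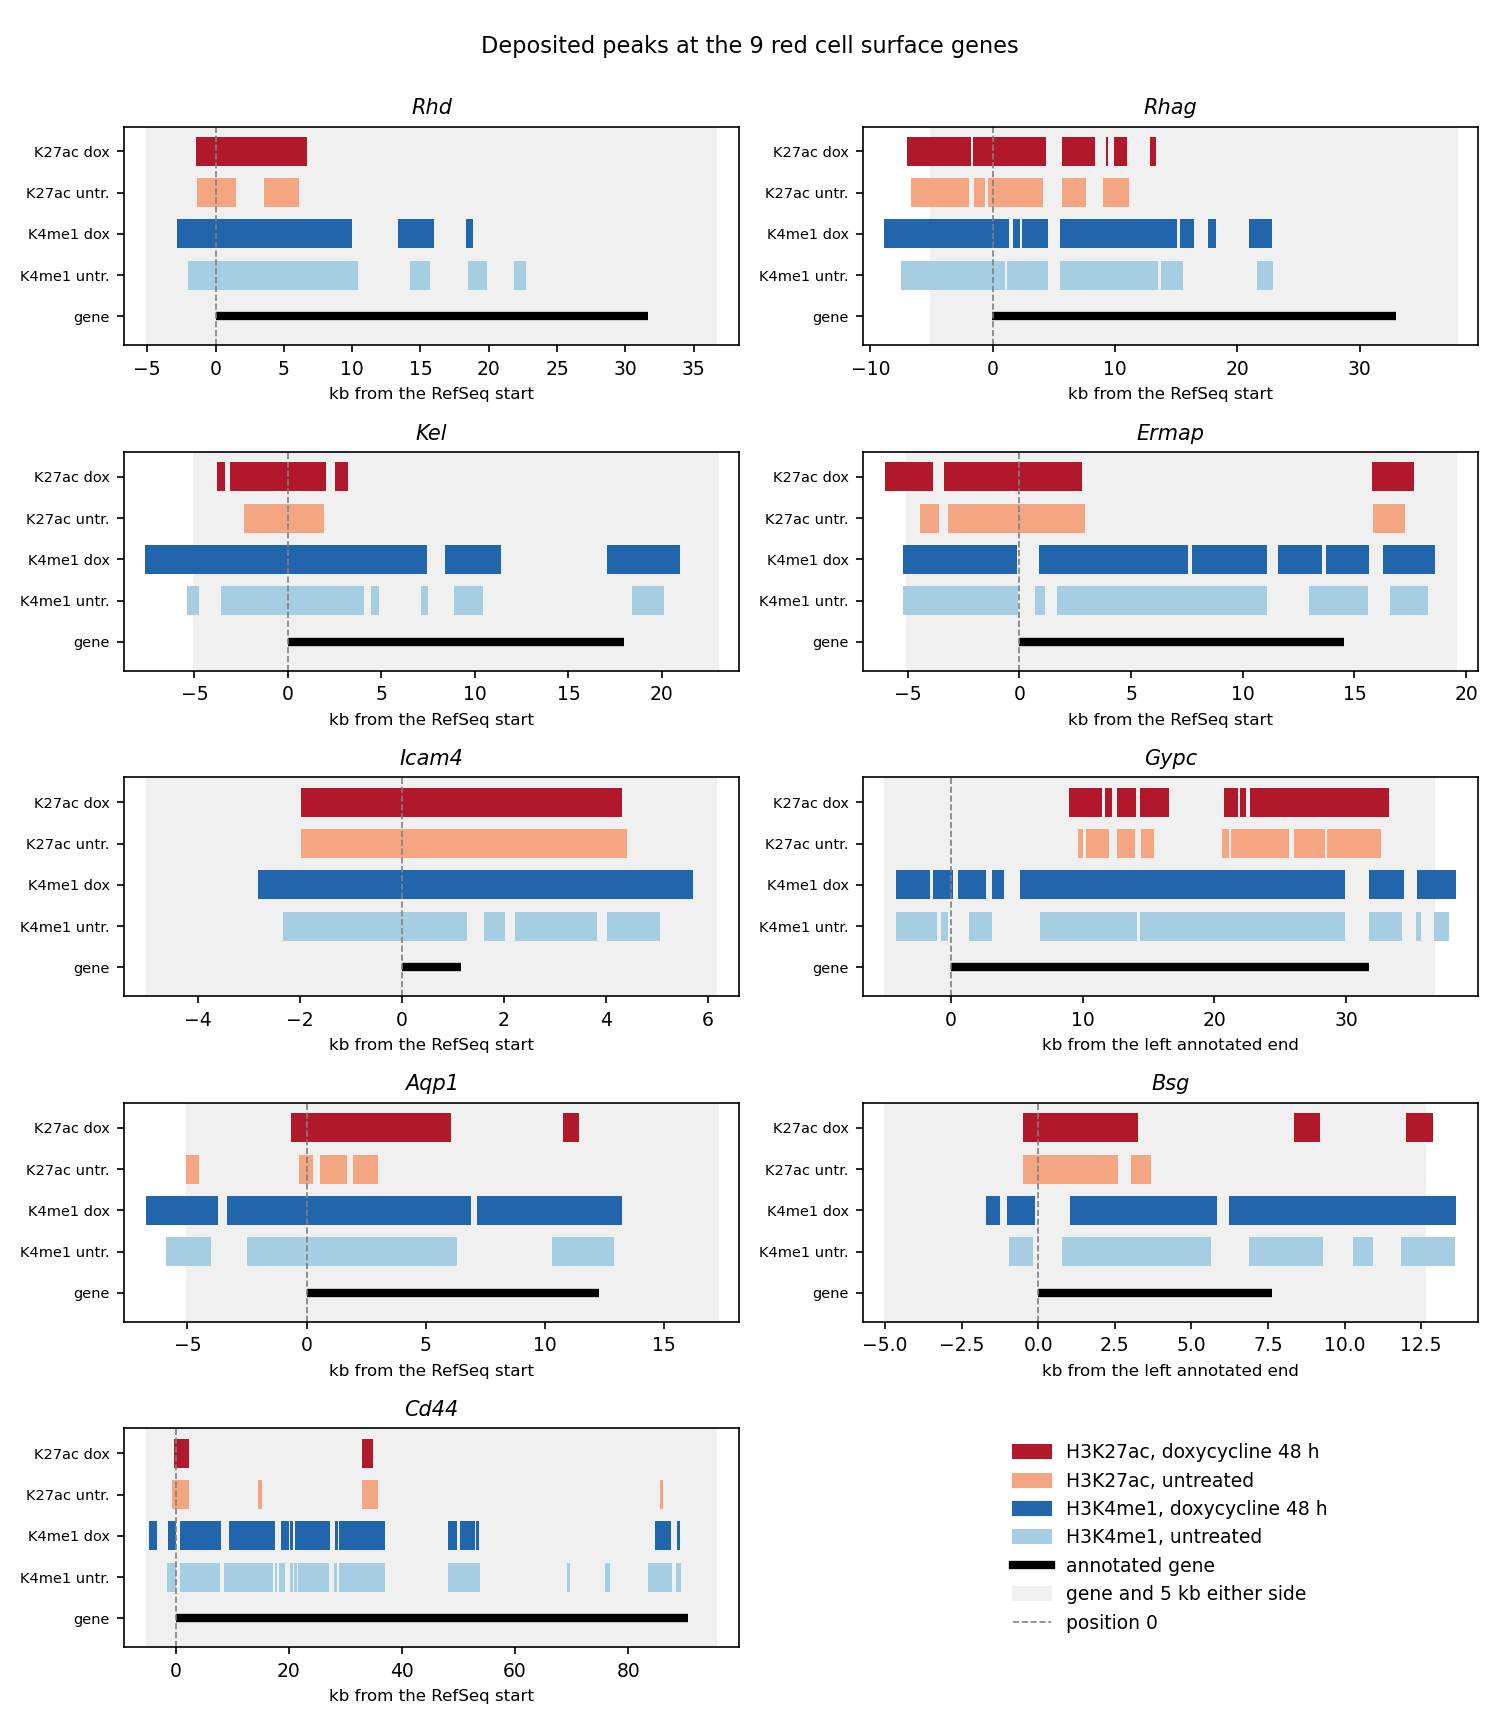
Peaks of the 4 lists at each of the 9 genes, drawn to scale in kb along the gene's own direction from the RefSeq start, or from the left annotated end for Gypc and Bsg; rows run doxycycline then untreated within each mark, the black bar is the annotated gene and the grey field the window. At Rhd and Aqp1, 1 wide H3K27ac peak of the doxycycline list lies over 2 or 3 peaks of the untreated list. At Gypc such a peak overlaps 3 untreated peaks, 1 of them only in part. At Cd44 the peaks at 14614 and 85664 bp are in the untreated H3K27ac list alone.

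Aqp1, the water channel that carries the human Colton antigen (chr6:55336299-55348555, plus strand), differed most in H3K27ac. It was covered over 7406 bp in the doxycycline list and 3262 bp in the untreated list, a ratio of 2.27, and 98.4% of genes with covered bp had a smaller difference. In the untreated list 3 short peaks of 553, 1153 and 1053 bp lay between -300 and 3002 bp, the first of them over the promoter. In the doxycycline list a single peak of 6703 bp ran from -650 to 6052 bp (chr6:55335649-55342351). Of its added length, 3050 bp was a continuous stretch beyond the last of these untreated peaks, from 3003 to 6052 bp. A peak of 703 bp at 10750 to 11452 bp, near the far end of the gene, was in the doxycycline list alone, and one of 553 bp at -5050 to -4498 bp was in the untreated list alone. H3K4me1 at Aqp1 covered 17659 bp with doxycycline and 12409 bp without, and no bp was in the untreated list alone. The share of the window under H3K27ac was 33.3% with doxycycline and 14.7% without. With peaks within 1 kb merged, the H3K27ac difference was 3600 bp in place of 4144 bp. With 20 kb either side in place of 5 kb it was 11394 bp, and other genes in those wider flanks are not named here.

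Over the 4 covered lengths together, the protein-coding genes on other chromosomes nearest to Aqp1 were Agrn, Supt3 and Noc2l, at Euclidean distances of 1303, 1504 and 1784 bp. Agrn encodes agrin, a proteoglycan of the extracellular matrix; it had 6441 bp of H3K27ac in the doxycycline list and 3894 bp in the untreated list. Supt3, a subunit of the SAGA coactivator complex, had 7362 bp with doxycycline and 1953 bp without. Likeness here rests on 4 values per gene.

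Ermap and Icam4, both of the immunoglobulin superfamily, differed little in H3K27ac. Ermap, which carries the human Scianna antigen (chr4:119175457-119190013, minus strand), had 9174 bp in the doxycycline list and 8409 bp in the untreated list. The peak over its start was 6153 bp wide in both, from -3356 to 2796 bp with doxycycline and from -3206 to 2946 bp without. Part of the coverage, 1847 bp in the doxycycline list and 1403 bp in the untreated list, lay in the body of the neighbouring gene Zfp691, and with windows of 2 kb the Ermap difference turned to -100 bp. Ermap was the 1 member of 7 whose start base itself had no H3K4me1 in either list, with a gap between peaks from -104 to 894 bp with doxycycline and from -54 to 694 bp without. The other 6 had H3K4me1 over the start base in both lists, against 23.7% of genes with doxycycline and 20.5% without.

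Icam4, the LW adhesion molecule that binds integrins (chr9:21029432-21030596, plus strand), lay within 1 H3K27ac peak of 6303 bp in the doxycycline list and 6403 bp in the untreated list. The difference was -100 bp. This peak reached into Icam1 on one side and Icam5 on the other, which lie 618 bp and 1442 bp away, so its coverage cannot be assigned to Icam4 alone. H3K4me1 was 1 peak of 8553 bp with doxycycline that overlapped 4 untreated peaks of 3603, 403, 1603 and 1053 bp. Without the bp that lie in Icam1 and Icam5, that H3K4me1 difference was 544 bp in place of 1891 bp.

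Gypc encodes glycophorin C, which ties the membrane to the skeleton through protein 4.1 and MPP1 and carries the human Gerbich antigens (chr18:32528320-32560034). Its H3K27ac covered 18771 bp in the doxycycline list and 15674 bp in the untreated list, or 45.0% and 37.6% of its window. A peak of 10553 bp at 22679 to 33231 bp from the left annotated end, wider than 99.6% of the doxycycline list, overlapped untreated peaks of 4403, 2353 and 4053 bp. The untreated peak of 4403 bp began before it, at 21279 bp, and also overlapped doxycycline peaks of 1053 and 453 bp. The larger pieces found with doxycycline alone were 700 bp and 1150 bp at the edges of a group of smaller peaks inside the gene. In all, 3888 bp of H3K27ac was in the doxycycline list alone and 791 bp in the untreated list alone. H3K4me1 covered 35804 bp with doxycycline and 31207 bp without, with a peak of 24703 bp in the doxycycline list over untreated peaks of 7353 and 15553 bp.

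Bsg, basigin, the carrier of the human Ok antigen and a chaperone of lactate transporters (chr10:79704358-79711979), had 5237 bp of H3K27ac in the doxycycline list and 3756 bp in the untreated list. Its peak at the left annotated end was 3753 bp wide with doxycycline and overlapped untreated peaks of 3103 and 653 bp. Peaks of 853 and 903 bp lay beyond the right end in the doxycycline list alone, and 346 bp of the second lay both in the window and in the gene Hcn2. The H3K27ac difference of 1481 bp was 850 bp with windows of 2 kb and 650 bp in the widest 50% of each list. H3K4me1 covered 12540 bp with doxycycline and 9493 bp without.

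Cd44, the hyaluronan receptor that carries the human Indian antigen (chr2:102811141-102901669, minus strand), went the other way in both marks. H3K27ac covered 4656 bp in the doxycycline list and 6862 bp in the untreated list, a ratio of 0.679 and a difference of -2206 bp, and 5.22% of genes had a lower value of the difference. In the widest 50% of each list the difference was -1100 bp. The peak over the start was 2753 bp with doxycycline and 3053 bp without, both ending at 2416 bp. An internal peak was 1903 bp wide with doxycycline, at 32964 to 34866 bp, and 2703 bp wide without, at 33014 to 35716 bp. Untreated peaks of 703 bp at 14614 to 15316 bp and 403 bp at 85664 to 86066 bp had no counterpart in the doxycycline list. H3K4me1 covered 43442 bp with doxycycline and 45995 bp without, and 6.23% of genes had a lower difference. With peaks within 1 kb merged this difference was -5094 bp, in place of -2553 bp. Both of those places had H3K4me1 with doxycycline: a peak of 8203 bp at 9364 to 17566 bp and one of 2803 bp at 84664 to 87466 bp. H3K27ac covered 4.63% of its window with doxycycline and 6.83% without, below the medians over genes of 7.68% and 7.75%. That window, 100529 bp, is the longest of the members. In bp, its H3K27ac in both lists was above the means over genes with covered bp, 3635.8 bp with doxycycline and 3678.9 bp without.

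**Figure D3:**
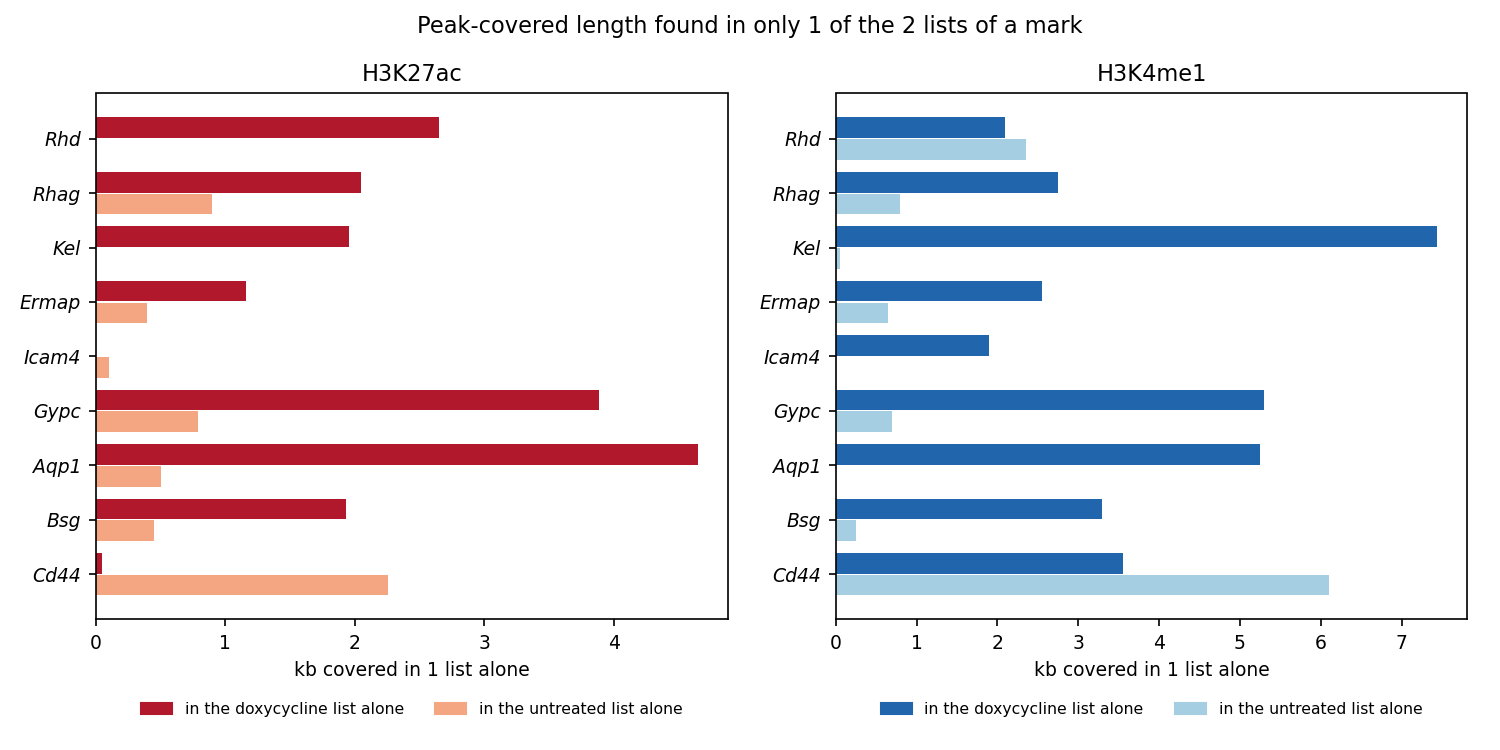
Length in kb of each gene's window covered in only 1 of the 2 lists of a mark; for each gene the upper bar is the doxycycline list alone and the lower bar the untreated list alone. Aqp1 has the longest H3K27ac bar for doxycycline alone (4647 bp) and Cd44 the longest for untreated alone (2256 bp).

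Set together, the members' H3K27ac windows had 18331 bp in the doxycycline list alone, 5394 bp in the untreated list alone and 61196 bp in both. For H3K4me1 these lengths were 34114, 10885 and 162686 bp. Of the H3K27ac found with doxycycline alone, 18081 bp or 98.6% lay inside H3K4me1 peaks of the untreated list, beside 91.8% over the whole lists. Of all member H3K27ac, 93.0% with doxycycline and 90.3% without lay in H3K4me1 of the same condition, beside 84.5% and 80.9% over the whole lists.

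Of the member H3K27ac peaks, 23 of 29 in the doxycycline list, 79.3% (95% exact Clopper-Pearson interval 60.3 to 92.0), overlapped the untreated list by at least 1 bp, and 27 of 30 in the untreated list, 90.0% (73.5 to 97.9), overlapped the doxycycline list. Over the whole lists the shares were 82.9% and 72.6%. When both peaks had to overlap by 50%, the member shares were 41.4% with doxycycline and 40.0% without. Most member peaks thus overlapped the other list by at least 1 bp, but most missed the 50% rule. Whole-list shares under the 50% rule are not given here for either mark, so those member shares have no background beside them. For H3K4me1 the shares with at least 1 bp of overlap were 93.8% (82.8 to 98.7) with doxycycline and 92.7% (82.4 to 98.0) without, beside 79.2% and 73.3%. With the 50% overlap of both peaks the H3K4me1 member shares were 60.4% and 52.7%. The intervals given cover counting error over peaks only. They treat peaks of the same gene as independent, which neighbouring peaks may not be. Gypc alone gave 7 of the 29 H3K27ac peaks with doxycycline, and Cd44 gave 14 of the 48 H3K4me1 peaks. Member peaks were also wider than most, with median H3K27ac widths of 1903 bp with doxycycline and 1803 bp without, against 1353 and 1003 bp over the lists. The part of width in these shares was not tested. Among member peaks, 8 of 29 H3K27ac peaks with doxycycline overlapped 2 or more untreated peaks, against 10.8% of that list, and 10 of 48 H3K4me1 peaks did, against 9.88%. In the other direction 4 of 30 untreated H3K27ac peaks overlapped 2 or more peaks of the doxycycline list, against 3.99%, and 7 of 55 for H3K4me1, against 3.84%. Wide peaks overlap several others more readily, and member H3K4me1 peaks were wider too. Their medians were 2628 bp with doxycycline and 1703 bp without, against 1153 and 903 bp over the lists. No counts among peaks of like width are given, and the part of width in these counts was not tested.

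Of 35 other surface and blood group genes, 28 had H3K27ac in either list, with 20 longer at all with doxycycline and 8 shorter. By the rule on size 10 of the 28 were called longer and 5 shorter, beside 10.1% and 11.0% of genes, and their summed lengths had a ratio of 1.14. In H3K4me1, 34 had covered bp, with 23 longer at all and 11 shorter. Of these 2 were called longer and 4 shorter, beside 10.5% and 6.78% of genes, with a ratio of 1.11. Xk, the partner of Kell, had 13233 bp of H3K27ac in the doxycycline list and 6774 bp in the untreated list, and Add2, a skeleton protein, had 6773 bp and 2067 bp. The genes called shorter with the largest differences were Abcc1, an efflux transporter, with 1956 bp of H3K27ac with doxycycline and 10518 bp without, Gcnt2, the enzyme of the I antigen, with 2437 bp and 6902 bp, and Slc2a1, the glucose transporter GLUT1, with 753 bp and 3409 bp. In H3K4me1 Cd36, a fatty acid receptor, had 25147 bp with doxycycline and 15333 bp without, and Slc4a1, the anion exchanger band 3, had 11086 bp and 5709 bp. Of the genes called shorter in H3K4me1, those with the largest differences were Gcnt2, with 23970 bp with doxycycline and 41394 bp without, Cd55, a complement regulator, with 6015 bp and 9121 bp, and Rhbg, a relative of Rhag, with 1631 bp and 3087 bp. Abcc1 and Slc2a1 differed by more bp than Cd55 and Rhbg, -7709 and -4206 bp, but by less than 1.5-fold.

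Of the genes for proteins that hold Rh, band 3 and glycophorin C to the skeleton (Ank1, Epb41, Epb42 and Mpp1), 3 of 4 were called longer in H3K27ac and 0 shorter, beside 10.1% and 11.0% of all genes, with a summed ratio of 1.25. Ank1, which encodes ankyrin, had 23780 bp in the doxycycline list and 15427 bp in the untreated list, and Mpp1 had 5415 bp and 2212 bp. Epb41, which encodes protein 4.1, was not called and had fewer bp with doxycycline, 26577 bp, than without, 28230 bp. Epb42, the band 4.2 protein, had 2353 bp with doxycycline and 603 bp without. It was the 1 of 4 called longer in H3K4me1, beside 10.5% of genes, with 9065 bp with doxycycline and 3759 bp without.

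**Figure D4:**
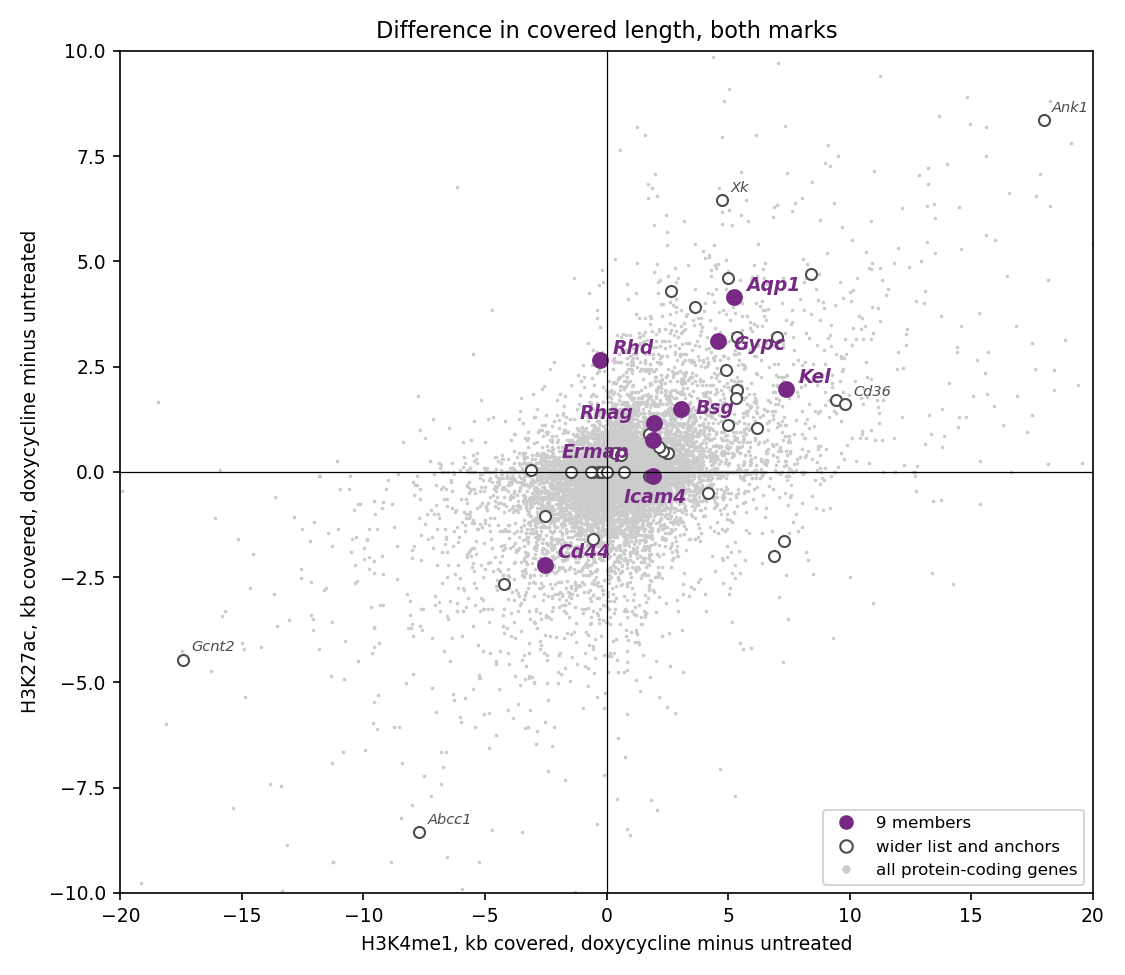
Difference in covered length, doxycycline minus untreated, in kb, with H3K4me1 on the horizontal axis and H3K27ac on the vertical axis; filled points are the 9 genes, open points the other surface genes and the skeleton partners, and grey points all protein-coding genes (73 lie outside the axes). Cd44 is the 1 filled point below 0 in both marks, and Aqp1 (4144 bp) and Kel (7391 bp) are the highest filled points in H3K27ac and H3K4me1.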

How the data were processed

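H3K27ac and H3K4me1 ChIP-seq peak lists with and without 48 h of doxycycline were used; the other samples of the series were not analysed here. Per the submitters' processing notes, reads were demultiplexed with bcl2fastq 2.17.1.14 and aligned with BWA to mm10. How peaks were called, with which thresholds, and how H3K27ac replicates were merged is not given in the sources used here. Each deposited H3K27ac list holds peak positions and widths. The deposited H3K4me1 lists give the authors' score per peak, of unstated scale, used here only to rank peaks within a list. Their last column, deposited by the authors and perhaps a p-value or q-value, was not used. The depth behind a list is unknown. More reads can give more and wider peaks, and the length covered says nothing of signal height.

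Coordinates were read as 1-based. Genes came from a RefSeq table (GRCm38.p6) without exons, so exon and intron classes are not given. Promoter entries matched 7 members; Gypc and Bsg had none, and their positions are from the left annotated end. Covered bp, overlaps and motifs were computed with scipy 1.17.1, pandas 2.3.3 and numpy 2.4.6 under Python 3.11.15, tested on simulated intervals and checked against bedtools 2.31.1. Figures were drawn with matplotlib 3.10.9. A call needed a 1.5-fold and 500 bp difference. With 1 list per condition there was no test. Of the 35 other surface genes and 4 skeleton partners, the 3 with the largest called differences per mark and direction were named, and Mpp1 besides, chosen after its values were seen. Members and lists were chosen with earlier results of these data known. Alternatives were other windows, scaled totals, peak width, rank and number limits, merged peaks, a 2-fold call and stricter overlap. Windows without the bodies of other protein-coding genes were also tried, with bodies of non-coding genes such as Gm38796 left in.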

Additional observations from a re-analysis of the deposited data

How the results depend on the processing

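Of 84 values recomputed for the counts, ratios and shares above, 76 stayed close to the value given and 8 did not; close means within 1.5 times for a count or ratio and inside the 95% interval for a share. A small count can thus move by 1 member and pass: in the better 50%, 6 and not 7 members had untreated H3K27ac over the start. Some values could not move. A 2-fold call cannot raise a count of 0 called at 1.5-fold, and the stretch within 1 kb of the start contains the promoter stretch. Summed ratios of 1.19 and 1.13 could fall nearly to 1 and still pass. The tally is therefore no measure of stability. For H3K27ac, which has no score, the better 50% are the widest peaks, and wide peaks overlap others more readily by construction; for H3K4me1 they are those of highest score. With peaks within 1 kb merged, 2 members (Kel and Aqp1) were called longer in H3K27ac. With the better 50% of each list, 2 (Kel and Icam4) were called longer in H3K4me1, and with a 2-fold call 0 were. The share of member H3K27ac peaks of the doxycycline list found in the untreated list was 94.1% in the better 50% and 41.4% with a reciprocal overlap of 50%; that overlap gave 40.0% for the untreated list, and for H3K4me1 60.4% with doxycycline and 52.7% without. The cause of these shifts was not tested. The reciprocal rule asks for 1 single peak of the other list that overlaps by 50% both ways, and several narrow ones are not added together.

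The sign of the difference did not turn under any of 8 alternatives for 15 of 18 pairs of member and mark. The exceptions were Ermap in H3K27ac (-100 bp with 2 kb windows), Rhag in H3K4me1 (-453 bp in the better 50%) and Rhd in H3K4me1 (between -1187 and 2754 bp). Not every alternative could turn a sign. Rhag, Aqp1, Gypc and Cd44 had no other protein-coding gene in their windows, so leaving out such bodies changed nothing there. The limit on peak width left the H3K4me1 difference of every member unchanged. The count of pairs that kept their sign is therefore no measure of stability either. The Icam4 difference in H3K27ac came to 0 bp with 2 kb windows and without the bodies of its neighbours. No paired analysis was possible because each mark had 1 list per condition, and for the same reason no replicate could be left out.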
